A study of Homo sapiens with 4 samples.

Results

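The 10 genes described here encode the transcription factors that drive or oppose the epithelial to mesenchymal transition (EMT). They were chosen by their known role, with earlier results of these data known, and are 10 of the 22840 gene symbols with a row in the count tables. The drivers are the repressors SNAI1, SNAI2, SNAI3, ZEB1, ZEB2, TWIST1 and TWIST2, and the opponents are the epithelial factors GRHL2, OVOL1 and OVOL2. RNA was sequenced from LSD1 knockdown and control cells of PC-3M-luc, a metastatic human prostate carcinoma line with a luciferase reporter that grows without androgen. Knockdown cells received RNAi against LSD1 and control cells a control RNAi, both transfected with Dharmafect 2 in the same serum-containing medium and taken 72 h later for total RNA. There were 2 libraries per group, named biological replicates in the labels, which do not say whether these were separate cultures, so that p-values measure the spread between these libraries, which may be technical. All results come from a single line and from RNAi of unstated sequence, which the series' design text calls a knockout while the sample labels say RNAi.

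In EMT, cells lose adhesion to their neighbours and gain motility. SNAI factors are zinc finger proteins whose N-terminal SNAG domain resembles the histone H3 tail and, in SNAI1, is known to bind LSD1, the demethylase encoded by KDM1A. SNAI and ZEB factors bind E-boxes of the form CAGGTG at epithelial genes such as CDH1 (E-cadherin) and recruit corepressors. TWIST factors are basic helix-loop-helix proteins that bind E-boxes with E-protein partners. GRHL2 activates epithelial genes, OVOL factors repress mesenchymal regulators, and both are known to oppose ZEB1, which in turn represses epithelial factors.

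KDM1A, the target of the knockdown, had 17.8 and 18.1 CPM in knockdown libraries, against 235.1 and 238.1 CPM in control libraries (CPM, counts scaled to the TMM-adjusted size of each library). This was 7.59% of control. Counts summed over 1 row per gene were 12040419 and 12831099 in knockdown libraries and 12473931 and 12410456 in control libraries, and after TMM scaling of these totals a count of 3 was worth 0.232 to 0.247 CPM. The carcinoma markers KRT8, KRT18, KRT19, EPCAM and CDH1 were all present, with a summed level of 1068 and 1113 CPM in knockdown and 999.0 and 1015 CPM in control libraries. The luminal prostate genes KLK2 and KLK3 had 0 counts in every library, but ACP3, prostatic acid phosphatase, had 62 and 64 counts in knockdown libraries, against 22 and 29 in control libraries, and rose by 1.27 on the log2 scale (edgeR adjusted p = 0.000189).

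Of the 10 genes, 6 passed the filter on low counts. Among these 1 rose (SNAI1), 2 fell (SNAI2 and ZEB1) and 3 did not pass the test (SNAI3, ZEB2 and TWIST1), at an adjusted p under 0.05 over 13246 genes in edgeR's quasi-likelihood test. Across all genes tested 36.1% were called, 18.2% higher and 17.9% lower, and 44.8% had an unadjusted p under 0.05, so that with 6 genes the share called is near this background. The other 4 genes, TWIST2, GRHL2, OVOL1 and OVOL2, had at most 2 counts in any library and were not tested. The 6 tested repressors did not all move one way. Their median log2 fold change was -0.05, against 0.00233 for all genes tested.

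**Figure D1:**
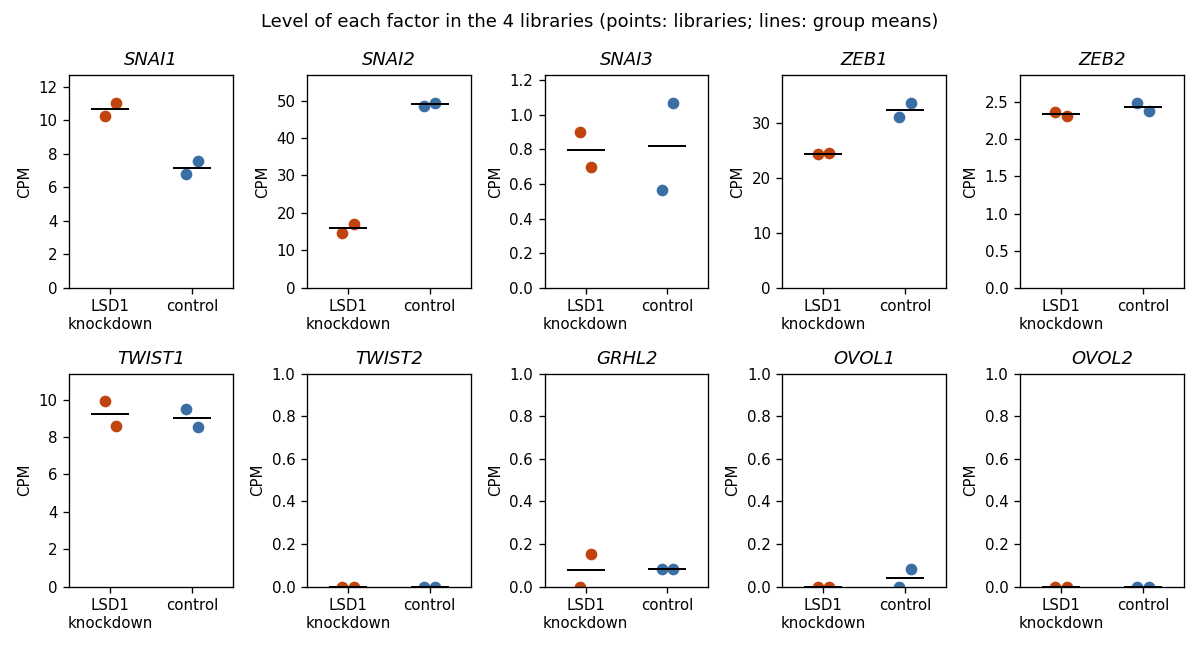
Level of each of the 10 factors in CPM, with the 2 LSD1 knockdown libraries on the left of each panel and the 2 control libraries on the right; points are libraries, lines are group means, and each panel has its own axis from 0. SNAI2 and ZEB1 were lower and SNAI1 higher in both knockdown libraries, and TWIST2, GRHL2, OVOL1 and OVOL2 lay near 0 in every library.

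SNAI2 (NM_003068), known as Slug, a zinc finger repressor of E-cadherin, showed the largest change of the 6 tested. It had 180 and 220 counts in knockdown libraries, against 602 and 601 in control libraries. In CPM these were 14.7 and 17.0 in knockdown libraries, against 48.5 and 49.5 in control libraries. Both knockdown libraries lay far below both controls, and the gap was many times the spread within either group. The means were 15.9 ± 1.60 CPM in knockdown cells and 49.0 ± 0.711 CPM in control cells (SD, n = 2 each). SNAI2 was 3.08-fold lower in knockdown cells, a log2 fold change of -1.62 ± 0.11 (SE, edgeR adjusted p = 3.68e-13) with a 95% interval of -1.85 to -1.40. In bulk RNA, fewer cells with the transcript and less transcript per cell cannot be told apart, here and below. No other gene overlaps the exons of SNAI2 in GENCODE v29.

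SNAI1 (NM_005985), or Snail, the founding member of the family and a repressor of the same promoter, moved the other way. Its counts were 125 and 143 in knockdown libraries, against 84 and 92 in control libraries, and its levels were 10.2 and 11.1 CPM in knockdown libraries, against 6.76 and 7.57 CPM in control libraries. The groups did not overlap, though they lay closer together than those of SNAI2. SNAI1 was 1.49-fold higher in knockdown cells, a log2 fold change of 0.57 ± 0.16 (SE, edgeR adjusted p = 0.00649) with a 95% interval of 0.24 to 0.91. This call is less firm than that of SNAI2. DESeq2 did not make it (DESeq2 adjusted p = 0.0789), and it was lost without knockdown replicate 2 (edgeR adjusted p = 0.0554) and without control replicate 1 (edgeR adjusted p = 0.0654), with log2 fold changes of 0.51 and 0.49.

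SNAI3 (NM_178310), the least studied SNAI gene, was near the limit of detection. It had 11 and 9 counts in knockdown libraries, against 7 and 13 in control libraries. The groups overlapped, and the log2 fold change of -0.03 had a 95% interval from -1.03 to 0.96 (edgeR adjusted p = 0.966), so that changes of this size in either direction were not detectable at this depth. The SNAI3 value is uncertain because its exons overlap those of the antisense gene SNAI3-AS1 over 163 nucleotides in GENCODE v29. SNAI3-AS1 had more reads than SNAI3, with a mean count of 51 over the 4 libraries, and the counting is not stated to use strand.

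**Figure D2:**
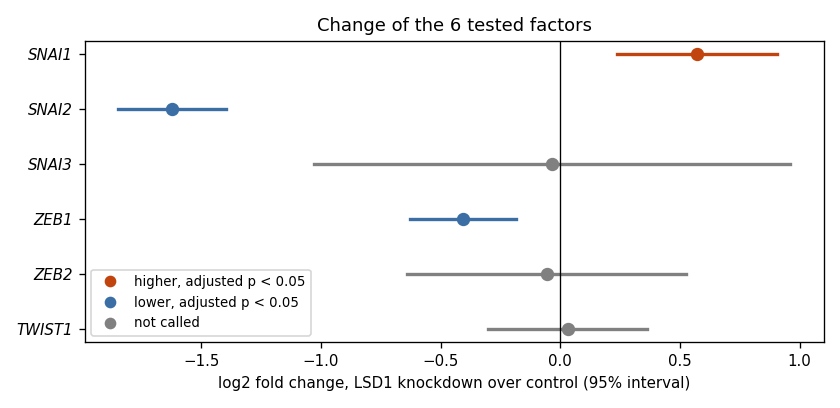
Log2 fold change of the 6 tested factors, LSD1 knockdown over control, on the horizontal axis, with lines for the 95% interval from edgeR's quasi-likelihood fit and colours for the call. The intervals of SNAI2 and ZEB1 lie below 0 and that of SNAI1 above it, while those of SNAI3, ZEB2 and TWIST1 span 0.

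ZEB1 (NM_001174096), a zinc finger and homeodomain repressor that recruits CtBP, fell by a small amount. Its counts were 297 and 316 in knockdown libraries, against 385 and 409 in control libraries, or 24.3 and 24.4 CPM in knockdown libraries, against 31.0 and 33.7 CPM in control libraries. The knockdown libraries nearly coincided and both lay below the controls. The means were 24.4 ± 0.0779 CPM in knockdown cells and 32.3 ± 1.89 CPM in control cells (SD, n = 2 each), and ZEB1 was 1.33-fold lower in knockdown cells, a log2 fold change of -0.41 ± 0.11 (SE, edgeR adjusted p = 0.00329). All 6 RefSeq rows of ZEB1 gave much the same value, since they count mostly the same reads. Their knockdown level was 74.4% to 75.8% of control. ZEB1 shares 366 exonic nucleotides with the antisense gene ZEB1-AS1, which had a mean count of 17.5.

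ZEB2 (NM_001171653), the paralog of ZEB1 that binds the same E-boxes, was expressed at a low level and was not called. Its row for a non-coding transcript, NR_033258, had 2 and 1 counts in knockdown libraries and 2 and 1 in control libraries. ZEB2 had 29 and 30 counts in knockdown libraries, against 31 and 29 in control libraries. In CPM the values were 2.37 and 2.32 in knockdown libraries, against 2.50 and 2.39 in control libraries, so that the groups were separate by a hair. Over all genes tested, 67.2% had groups that did not overlap. The log2 fold change of ZEB2 was -0.06 with a 95% interval from -0.64 to 0.53 (edgeR adjusted p = 0.897), which includes the change seen in ZEB1. Its antisense gene ZEB2-AS1 overlaps it over 1299 nucleotides but had a mean count of 0.25.

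The ZEB1 promoter itself holds the E-box that SNAI and ZEB proteins bind, and it is shown because ZEB1 is the ZEB gene that changed. RefSeq gives ZEB1 7 promoter windows (250 bases before to 50 after a start), of which the one below has the most matches, 3. Capitals mark CAGGTG or CACCTG, the same motif read on either strand. The window is on the + strand of GRCh38.p14.
ZEB1 (chr10:31318966-31319265): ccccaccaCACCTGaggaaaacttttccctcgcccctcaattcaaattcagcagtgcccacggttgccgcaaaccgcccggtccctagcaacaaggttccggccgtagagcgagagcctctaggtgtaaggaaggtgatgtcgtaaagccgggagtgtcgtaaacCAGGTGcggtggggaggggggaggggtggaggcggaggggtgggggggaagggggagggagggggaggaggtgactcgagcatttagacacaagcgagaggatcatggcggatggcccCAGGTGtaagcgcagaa
Another ZEB1 window held 1 match, the other 5 held 0, and the single windows of ZEB2 and TWIST2 held 0. The other factors, SNAI2 and SNAI1 among them, have no window given here. Of 35116 windows of this length, 20.6% held at least 1 match, and a match does not show that a factor binds there. This share is per single window, whereas the window shown was picked as the best of 7, so the 2 are not alike.

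Promoters of epithelial genes were searched in the same way. The epithelial list, whose counts are given further on, had a promoter window in the table for 16 of its 31 tested genes. CDH1, ESRP1, CDH3 and ERBB3 had none. Of the 16 genes, 12 (75%) held a match in at least 1 window. This compared with 23.8% of the 10613 genes with a window among 13246 tested, and with 3 of 13 tested mesenchymal genes. The epithelial list was compiled as presumed targets of such repressors, with earlier results of these data known. Its share is therefore no independent test of the motif. Within the epithelial list 3 of 5 genes that rose held it, 2 of 3 that fell and 7 of 8 that were not called, and 1 of the 9 called mesenchymal genes did. As examples, the 2 genes with the smallest adjusted p among the 3 that rose and hold the motif were SPINT1, an inhibitor of cell surface serine proteases, and OCLN, which encodes the tight junction protein occludin and whose call was lost in DESeq2. Both windows are on the + strand of GRCh38.p14, with the motif in capitals.
SPINT1 (chr15:40844227-40844526): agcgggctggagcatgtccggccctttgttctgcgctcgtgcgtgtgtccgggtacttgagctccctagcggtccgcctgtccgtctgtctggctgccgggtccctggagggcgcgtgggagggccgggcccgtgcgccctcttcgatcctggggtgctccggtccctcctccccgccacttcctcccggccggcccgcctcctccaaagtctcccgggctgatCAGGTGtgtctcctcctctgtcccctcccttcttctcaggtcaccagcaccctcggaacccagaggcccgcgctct
OCLN (chr5:69492540-69492839): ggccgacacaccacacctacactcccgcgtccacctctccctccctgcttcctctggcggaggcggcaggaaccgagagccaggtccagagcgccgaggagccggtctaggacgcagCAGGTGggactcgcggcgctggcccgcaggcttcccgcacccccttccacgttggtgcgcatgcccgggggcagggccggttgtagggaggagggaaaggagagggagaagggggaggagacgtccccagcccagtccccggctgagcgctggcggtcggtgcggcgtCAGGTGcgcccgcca

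ZEB1 and ZEB2 are also known as the main targets of the miR-200 family, whose members share 2 seeds (bases 2 to 8, in capitals), so the sequences are shown as the known post-transcriptional opponents of the ZEB genes. The sequences are those of RefSeq (GRCh38.p14).
hsa-miR-200b-3p: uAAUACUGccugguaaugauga
hsa-miR-200c-3p: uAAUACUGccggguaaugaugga
hsa-miR-429: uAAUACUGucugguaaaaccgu
hsa-miR-200a-3p: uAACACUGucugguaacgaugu
hsa-miR-141-3p: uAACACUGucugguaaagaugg
The first set of 3 shares the seed AAUACUG, which pairs with CAGTATT in a target, and the other set of 2 shares AACACUG, which pairs with CAGTGTT. The longest annotated 3′ UTR of ZEB1 (2549 nucleotides) holds 6 copies of CAGTATT and 3 of CAGTGTT, and that of ZEB2 (5370 nucleotides) 5 and 4. None of the other 8 factors has more than 1 copy of either. Among 11884 tested genes with a 3′ UTR, 19.5% hold CAGTATT and 21.8% CAGTGTT. The first CAGTATT of each ZEB gene is printed with its neighbours, in transcript orientation, which is the + strand for ZEB1 and the - strand for ZEB2 in GRCh38.
ZEB1 (chr10:31527622-31527651): ttttatcttatCAGTATTatcactcttatg
ZEB2 (chr2:144389041-144389070): ctaccatacatCAGTATTtttattattatt
All 5 miR-200 precursor rows in the count tables had 0 counts in every library, and mature miRNAs were not measured separately. The part of miR-200 in the fall of ZEB1 was not tested.

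TWIST1 (NM_000474), a basic helix-loop-helix repressor, was expressed and was not called. Its levels were 9.91 and 8.58 CPM in knockdown libraries, against 9.50 and 8.56 CPM in control libraries. The groups overlapped. The log2 fold change of TWIST1 was 0.03 ± 0.16 (SE, edgeR adjusted p = 0.902), with a 95% interval of -0.30 to 0.36 that excludes a fall like that of SNAI2. TWIST1 shares 141 exonic nucleotides with the antisense gene AC003986.2, for which no count was available. TWIST2, its paralog, had 0 counts in every library, which allows a level of up to 0.232 to 0.247 CPM, a limit that covers counting error only.

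The epithelial opponents were at or near 0 in both groups. GRHL2, a grainyhead factor that activates E-cadherin and claudin genes, had 0 and 2 counts in knockdown libraries and 1 and 1 in control libraries. OVOL1, a zinc finger repressor of ZEB1, had 0 and 0 counts in knockdown libraries and 0 and 1 in control libraries. OVOL2, which has the same role, had 0 counts in all 4 libraries. No induction of these genes was detectable at this depth, where 3 counts in a library mark the limit for a gene with 0. Their paralog GRHL1, named after its values were seen, was expressed at 11.6 ± 1.88 CPM in knockdown and 9.44 ± 0.428 CPM in control cells (SD, n = 2 each) and was not called (edgeR adjusted p = 0.147), and GRHL3 had at most 1 count.

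Levels of different genes were compared per kb of transcript, with lengths from GENCODE v29. In knockdown cells SNAI2 stood at 7.90 ± 0.798 CPM per kb and SNAI1 at 6.31 ± 0.344 (SD, n = 2 each), while in control cells SNAI2 stood at 24.4 ± 0.354 and SNAI1 at 4.25 ± 0.340 (SD, n = 2 each). The ratio of SNAI2 to SNAI1 per kb was 1.21 and 1.29 in knockdown libraries, against 6.01 and 5.48 in control libraries. SNAI2 was thus the most abundant of the 10 per kb in control cells whichever ZEB1 length was used. TWIST1 stood at 5.55 ± 0.563 CPM per kb in knockdown and 5.42 ± 0.399 in control cells (SD, n = 2 each). ZEB1 depends on the transcript assumed. The CPM of its 1 row used was divided by the lengths of GENCODE transcripts matched to its RefSeq rows, 3217 to 6267 nucleotides. Its level then runs from 7.58 to 3.89 CPM per kb in knockdown and from 10.1 to 5.16 in control cells. In knockdown cells SNAI2 lay above SNAI1 and TWIST1 in both libraries, while the place of ZEB1 among them cannot be fixed. TWIST1 and SNAI1 there differed by about their spread, and ZEB1 sits above or below both depending on its length. ZEB2, scaled in the same way by transcripts of 4061 to 9541 nucleotides, stood between 0.246 and 0.578 CPM per kb in knockdown and between 0.256 and 0.601 in control cells. SNAI3 stood at 0.461 ± 0.0837 in knockdown and 0.472 ± 0.207 in control cells (SD, n = 2 each), within that range.

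**Figure D3:**
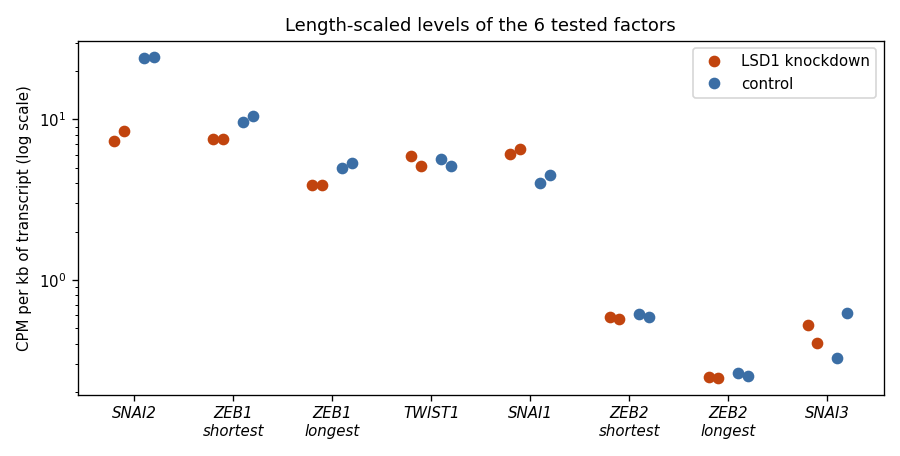
CPM per kb of transcript on a log axis for the 6 tested factors. Points are single libraries, with LSD1 knockdown on the left and control on the right of each gene. ZEB1 and ZEB2 are each drawn from 1 count row, scaled by the shortest and the longest transcript matched to their coding RefSeq rows. SNAI2 stands above the others in control libraries. In knockdown libraries it lies above SNAI1 and TWIST1 and near ZEB1 at its shortest transcript, while ZEB2 and SNAI3 lie below 1 CPM per kb.

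The levels of the 7 repressors summed to 62.5 and 64.1 CPM in knockdown libraries, against 98.8 and 102.7 CPM in control libraries. SNAI2 and ZEB1 make up most of this sum, and it is not scaled by length.

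Genes whose pattern over the 4 libraries was closest to that of a called factor were found by the Euclidean distance of centred log2 CPM among the 10934 tested genes that averaged 5 CPM or more. With 4 libraries this mostly matches the size of the change. Closest to SNAI2 were ENO2, a neuronal enolase of glycolysis (distance 0.0643), CBR3, a carbonyl reductase (0.075), and CSF1, a macrophage growth factor (0.113). Closest to SNAI1 were TBC1D14 (0.0263), PRKAA1, a catalytic subunit of AMP-activated kinase (0.0317), and ABCC4, a drug efflux pump (0.0408). Closest to ZEB1 were LSM14B (0.0219), SIX5 (0.0291) and the Mediator subunit gene MED28 (0.0301).

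Genes known as epithelial or mesenchymal markers in EMT were counted by list. Their control by these factors was not tested, and the lists were chosen with earlier results of these data known. The epithelial list, 31 genes tested, had 14 that rose, 3 that fell and 14 not called, and its median log2 fold change was 0.34. The mesenchymal list, 21 genes tested, had 3 that rose, 11 that fell and 7 not called, and its median was -0.75. All genes tested had a median of 0.00233, with 18.2% called higher and 17.9% lower. ESRP1, an epithelial splicing regulator repressed by ZEB1 and activated by GRHL2, had 198 and 201 counts in knockdown libraries, against 33 and 44 in control libraries, a log2 fold change of 2.34 (edgeR adjusted p = 9.54e-12). CDH1, a target of all 3 repressor families, had 389 and 433 counts in knockdown libraries, against 161 and 170 in control libraries, with a log2 fold change of 1.28 (edgeR adjusted p = 3.96e-10). SPINT1 rose by 1.13, the receptor gene ERBB3 by 0.80 and CDH3, which encodes P-cadherin, by 0.73. Against this direction GJB2, a gap junction gene, fell by 0.94, CLDN4, a claudin gene known as a GRHL2 target, by 0.60 and DSC2, a desmosomal cadherin gene, by 0.46 on the log2 scale. GRHL2 and the OVOL genes were at or near 0 in both groups, as given above.

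Mesenchymal genes that fell included the fibronectin receptor gene ITGA5 with a log2 fold change of -1.42, the nucleotidase gene NT5E at -1.46, the tenascin gene TNC at -1.24, the fibrillin gene FBN1 at -1.55 and the cadherin gene CDH11 at -0.95. SPARC, a matrix protein gene, rose by 1.97, and the collagen genes COL5A2 and COL1A2 by 1.29 and 0.61, the COL1A2 call being lost without control replicate 1. VIM and CDH2, the textbook mesenchymal markers, were named after their values were seen. VIM stood at 897.5 ± 13.0 CPM in knockdown and 1128 ± 18.6 CPM in control cells (SD, n = 2 each), and fell by 0.33 on the log2 scale (edgeR adjusted p = 0.0019). CDH2 stood at 61.9 ± 1.67 CPM in knockdown and 71.2 ± 1.42 CPM in control cells (SD, n = 2 each) and was not called (edgeR adjusted p = 0.0707).

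**Figure D4:**
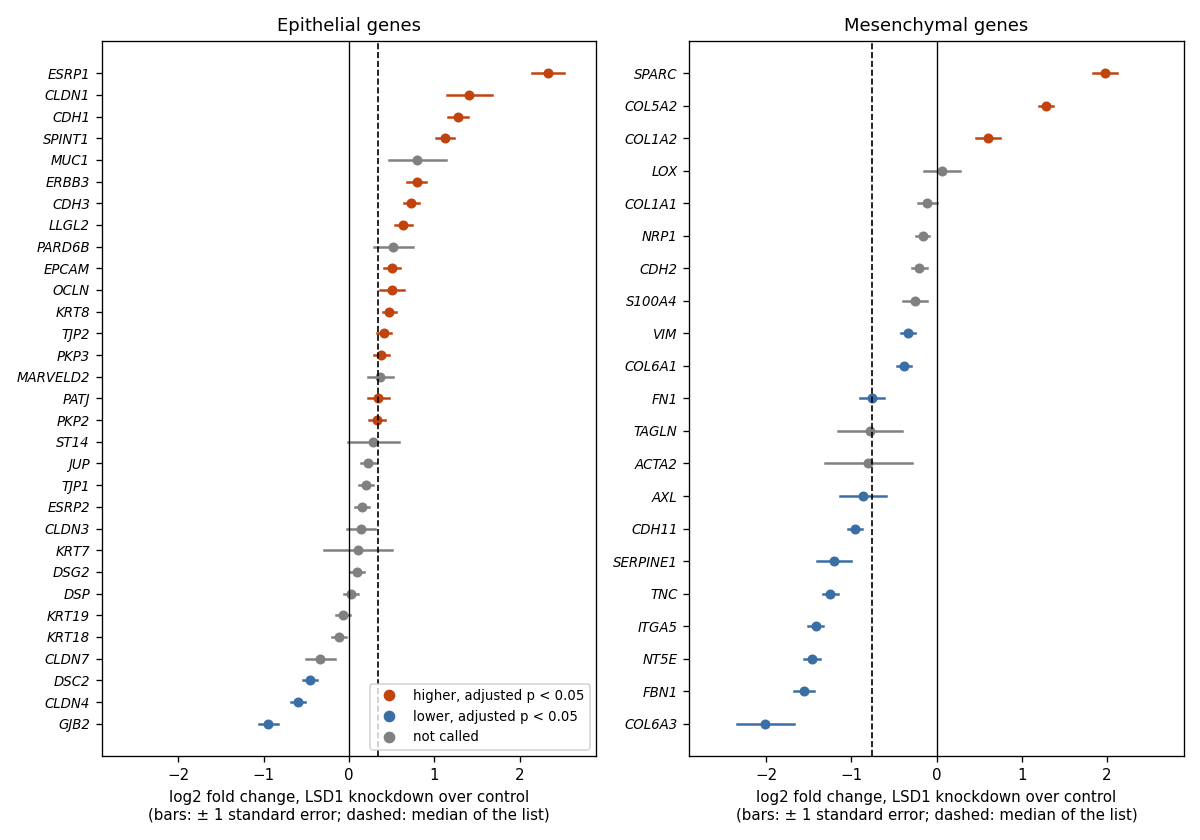
Log2 fold change, LSD1 knockdown over control, of the tested epithelial genes on the left and mesenchymal genes on the right, each gene a point with bars of 1 standard error and the list's median dashed. Most epithelial points lie right of 0, led by ESRP1 at 2.34, and most mesenchymal points left of 0, with SPARC at 1.97 and COL5A2 at 1.29 on the other side.

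Other EMT factors held 5 genes that fell and 0 that rose among 12 tested, with a median of -0.26, where over all genes 17.9% were called lower and 18.2% higher. HMGA2, a chromatin architectural protein known to induce SNAI1 and TWIST1, fell to 206.7 ± 5.53 CPM in knockdown cells, against 426.3 ± 7.82 CPM in control cells (SD, n = 2 each). ETS1 fell 2.09-fold, FOXC1 1.91-fold and SOX4 1.23-fold, SOX4 losing its call without knockdown replicate 2. FOXQ1 fell at a low level, and its call was lost in 7 of 12 alternative settings, among them leaving out any of the 4 libraries. Without knockdown replicate 2 the list held 3 that fell. Among 11 other epithelial factors 1 rose and 3 fell, with a median of -0.12. EHF, an ETS factor of differentiated epithelium, had 47 and 41 counts in knockdown libraries, against 14 and 9 in control libraries, a log2 fold change of 1.89 (edgeR adjusted p = 3.38e-05). KLF4, KLF5 and ELF3 fell 1.44-fold, 1.28-fold and 1.22-fold, and the ELF3 call was lost without control replicate 2.

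The corepressors and partners of the SNAI, ZEB and TWIST factors held 6 that rose and 7 that fell of 29 tested, with a median of -0.06, near the 18.2% higher and 17.9% lower over all genes. Fewer were called higher without knockdown replicate 1 (3), control replicate 1 (1) or control replicate 2 (2), with no filter (3) and in DESeq2 (2). The ID proteins, which block E-proteins from pairing with TWIST factors, were lower: ID1 had 292 and 315 counts in knockdown libraries, against 850 and 642 in control libraries, a log2 fold change of -1.33 (edgeR adjusted p = 3.27e-11). ID2 fell by 0.68 and ID3 by 0.94 on the log2 scale, the ID3 call being lost in DESeq2. LIMD1, a relative of the SNAI partner AJUBA, fell 1.44-fold and DNMT1, the maintenance DNA methyltransferase, 1.33-fold. AJUBA itself, named after its values were seen, rose 1.18-fold, a call lost in 6 of 12 settings. EP300, a histone acetyltransferase, rose 1.32-fold and PHF21A, a subunit of the LSD1 complex, 1.31-fold, a call lost without control replicate 1. RCOR2, KAT2B and TCF12 also rose, and each of these calls was lost in at least 4 of 12 settings.

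Genes that govern SNAI protein stability and location held 3 that rose and 6 that fell of 29 tested, with a median of -0.04, where over all genes 18.2% were called higher and 17.9% lower. The count is thus not above that background in the rises and near it in the falls. LOXL2, a lysyl oxidase that binds SNAI1 and is known to stabilize it, fell to 23.9 ± 0.210 CPM in knockdown cells, against 45.2 ± 4.64 CPM in control cells (SD, n = 2 each), or 1.89-fold (edgeR adjusted p = 3e-08). The ubiquitin ligase genes FBXW7 and FBXO45 fell 1.42-fold and 1.32-fold, and COPS5 and the exportin gene XPO1 fell 1.19-fold and 1.18-fold. FBXL5, another ligase of SNAI1, rose 1.34-fold, LATS2, a kinase of the Hippo pathway, 1.35-fold and GSK3A 1.24-fold, and 0 of these 3 rises were called without control replicate 2 or in DESeq2. Without a normalization factor 5 genes of this list rose. Without knockdown replicate 2, 3 genes of this list fell, and the calls of COPS5 and XPO1 were lost. Over all 12 alternative settings the COPS5 call was lost in 3 and the XPO1 call in 2. RNA counts do not show the amount or location of SNAI protein.

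Among signals that act upstream 8 rose and 7 fell of 29 tested, with a median of 0.08, beside 18.2% higher and 17.9% lower over all genes. The TGF-beta receptor genes moved in opposite directions. TGFBR1 rose to 25.1 ± 0.00913 CPM in knockdown cells, against 8.79 ± 0.323 CPM in control cells (SD, n = 2 each), and TGFBR2 fell 1.27-fold. MET, the receptor of hepatocyte growth factor, and WWTR1, the Hippo effector TAZ, each rose 1.58-fold, TGFB3 rose by 0.58 on the log2 scale and TCF7L2 1.37-fold. FGFR1, EPAS1 and HMGB3 fell 1.60-fold, 1.37-fold and 1.33-fold, and TGFB2 fell 1.29-fold, a call lost without control replicate 2. Without knockdown replicate 1 or control replicate 1, 5 genes of this list rose.

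Some markers of other cell types were at 0 and others were expressed. The erythroid list reached at most 3 counts in a library, and its defining gene HBB was at 0. Of 8 leukocyte markers PTPRC and CD3E were at 0, and the list summed to 47.6 and 49.9 CPM in knockdown libraries, against 91.2 and 89.2 CPM in control libraries, nearly all of it CD68, a lysosomal protein gene, which fell. CD79A also fell, a call lost in 3 of 12 alternative settings. LYZ rose, with 17 and 13 counts in knockdown libraries, against 4 and 2 in control libraries, a call lost in 2 of 12 settings. Of 10 fibroblast and endothelial markers LUM and CDH5 were at 0, and the list summed to 132.1 and 130.0 CPM in knockdown libraries, against 92.4 and 104.2 CPM in control libraries. KDR stood at 55.1 ± 3.98 CPM in knockdown and 24.5 ± 5.79 CPM in control cells (SD, n = 2 each). KDR and COL1A2 rose, PECAM1 fell with a call lost in 9 of 12 alternative settings, PDGFRA and COL1A1 were not called, and several of these markers lay above most of the 10 factors in CPM. The part of these sums in the changes of the factors and of the mesenchymal list was not tested.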

How the data were processed

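The authors deposited raw read counts per RefSeq transcript, 1 table for each of 4 libraries, with no header and no normalization, judged from the values. Per the submitters' processing notes, which give no roles, TopHat2, HOMER, edgeR, DESeq 1.8.3 and hg19 were used. No source used here gives the library kit, the strand or how reads were counted.

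Of 38767 rows, 37205 were named from a RefSeq gene table and 471 from GENCODE v29. The 1091 unnamed rows, 1.38% to 1.40% of the counts, were left out. The row with the highest mean stood for each of 22840 symbols, since the rows of 1 gene share reads. The filter was filterByExpr at a minimum count of 10 and a minimum total of 15. Scaling was by TMM. The quasi-likelihood test of edgeR 4.0.16 (R 4.3.3) had a single term, the group, and p-values were adjusted by Benjamini-Hochberg over 13246 genes, with calls at 0.05. Standard errors are the absolute log2 fold change divided by the root of the F statistic. The biological coefficient of variation was 5.96%. The test was checked on simulated data. Replicates differed by more than sampling noise (chi-square per gene 4.30 and 5.00). Alternatives were DESeq2 1.42.0, limma-voom 3.58.1, other scalings and filters, sums of rows, the replicate block and leaving out each library. The genes and lists were chosen with earlier results of these data known. Genes of a list are named by rule, up to 5 called in each direction by adjusted p. The SNAG domain genes, the miRNA and antisense genes and the cell type markers are named outside this rule. Any other gene is marked where it stands. Lists are given as counts and medians with no test. Lengths, overlaps and sequences are of GRCh38, another build than hg19, so genes are given without coordinates.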

Additional observations from a re-analysis of the deposited data

How the results depend on the processing

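The calls of SNAI2 and ZEB1 kept their direction and their side of the threshold in all 12 alternatives, with log2 fold changes from -1.73 to -1.53 for SNAI2 and from -0.47 to -0.35 for ZEB1. SNAI1 kept its direction, but 0 of the factors were called higher in DESeq2, and leaving out 1 library gave 0 to 1. DESeq2 called 1564 genes higher over all genes, against 2414 in edgeR, and the cause was not tested. Without a normalization factor the median of all genes moved by less than 0.1, to 0.0373. SNAI3, ZEB2 and TWIST1 were called in none of the settings in which they were tested, and SNAI3 had no adjusted p in DESeq2 and failed the filter of 1 CPM. Among the counts of single lists, 12 moved by over 1.5 times, all of them small counts of at most 8 genes. The replicate numbers do not pair the libraries by the labels, and the differences between replicates correlated by 0.0676 between the groups over genes. With the replicate block 2630 genes were higher and 2631 lower over all genes, and no call among the factors changed. Depth limits what can be said of SNAI3, TWIST2, GRHL2, OVOL1 and OVOL2.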

Other observations

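Genes that share the SNAG domain with the SNAI family were mostly silent. GFI1B, INSM1 and SCRT2 had 0 counts in every library, INSM2 had at most 1, and GFI1 had 6 and 8 counts in knockdown libraries, against 5 and 2 in control libraries. SCRT1 was the only one of these 6 tested, at 1.58 ± 0.386 CPM in knockdown and 1.26 ± 0.308 CPM in control cells (SD, n = 2 each), and was not called (edgeR adjusted p = 0.528).

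STAT3, a transcription factor downstream of interleukin receptors that is often placed upstream of SNAI and TWIST genes, was listed at 0 counts in all 4 libraries. The parental line PC-3 is known to lack this gene. IL6, which signals through STAT3, had at most 2 counts. Both genes were named after their values were seen.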
